A study of Homo sapiens with 12 samples.

Results

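The transcripts described here are 40 genes of glucose uptake, glycolysis, lactate handling and the hypoxia response, chosen by name from a list of glucose transporters, glycolytic enzymes, lactate carriers, subunits of hypoxia-inducible factor (HIF) and HIF targets. They are 40 of the 60648 genes counted, and all 40 passed the filter on low counts that left 18289 genes for testing. RNA came from HCT116, an established human colon carcinoma line kept in DMEM with fetal bovine serum, as 12 poly-A selected libraries in 4 groups of 3. The groups were wild type (MTHFD2-WT) at the initial harvest, wild type at the final harvest, MTHFD2 knock-out (MTHFD2-KO) at the initial harvest, taken right after the knock-out was generated, and knock-out at the final harvest, taken after 2 months of culture. The knock-out was made with CRISPR-Cas9 and is 1 isolated clone, so the effect of losing MTHFD2 and the properties of that clone cannot be told apart. Nothing states that the 3 libraries of a group came from separate cultures, so p-values measure only the spread between these libraries.

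Glycolysis turns glucose into pyruvate in the cytosol, and carcinoma lines commonly run it at a high rate and export the product as lactate. HIF is a transcription factor made of an oxygen-regulated alpha subunit (HIF-1alpha or HIF-2alpha) and the constant partner ARNT. In oxygen, prolyl hydroxylases mark the alpha subunit for destruction, and in hypoxia it accumulates, binds DNA at a short core sequence and raises many genes of glucose uptake and glycolysis. MTHFD2 is a mitochondrial enzyme of one-carbon folate metabolism, which is fed by serine made from a glycolytic intermediate.

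Library totals ran from 38597809 to 40017561 counts, and correlations between libraries of a group ran from 0.989 to 0.996. MTHFD2 itself had 319 to 457 CPM (the count relative to the TMM-scaled library total, per 1e6) in the wild type and 123 to 155 CPM in the knock-out, with a log2 fold change of -1.59 initially and -1.38 finally (adjusted p = 3e-08 and 1.09e-07, edgeR's quasi-likelihood test), so its transcript was reduced and still present. Of 8 colon epithelium markers, KRT20, VIL1 and CDX1 were under 1 CPM in every library. The summed level of these 8 markers was 2151 to 2554 CPM in the wild type at the initial harvest, 2377 to 2518 at the final harvest, and 1979 to 2153 and 1802 to 2048 in the knock-out. KRT8 was the largest part of this sum. At an adjusted p under 0.05 in edgeR, CDH1 (log2 fold change -1.01 and -0.44) and EPCAM (-0.36 and -0.31) were lower in the knock-out at both harvests. KRT18 (-0.36) and the scarce KRT20 (-2.06) were lower at the final harvest only. KRT8 and CDX2 passed at neither. The 5 fibroblast markers summed to 56.8 to 69.9 and 60.2 to 78.8 CPM in the wild type and to 37.5 to 48.2 and 43.4 to 59.3 CPM in the knock-out. Nearly all of this was COL1A1, with means of 61.7 and 68.5 CPM in the wild type and 40.6 and 49.3 CPM in the knock-out. COL1A2 was under 1 CPM and DCN at 0 in every library. PDGFRB, also scarce, went the other way, with log2 fold changes of 0.96 and 1.08 in edgeR (adjusted p = 0.00816 and 0.00333). All 4 leukocyte markers were under 1 CPM in every library, and the 3 endothelial markers together reached at most 2.22 CPM. The part of these lists in the results was not tested.

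Most of the 40 genes differed little between the groups, and the changes that passed the test ran in both directions. The knock-out differed from the wild type in 14 of 40 genes at the initial harvest, 8 higher and 6 lower, and in 10 of 40 at the final harvest, 3 higher and 7 lower. A gene was called at a Benjamini-Hochberg adjusted p under 0.05 over all genes tested, and the share of all genes so called was 19.9% at the initial harvest (8.55% higher, 11.3% lower) and 18.5% at the final harvest (8.38% higher, 10.2% lower). The shares among the 40 genes were 35% and 25%, the second nearer to its background. The 40 genes were chosen with earlier results of these data known, which limits any comparison of their shares with the background. Over the 40 genes the median log2 fold change was 0.10 initially and -0.14 finally, against 0.00 at both harvests over all genes tested. In bulk RNA, fewer cells expressing a gene and less RNA per cell cannot be told apart.

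Levels can be compared between genes only per length, as CPM per kilobase of the gene model (RPKM, averaged here over the 12 libraries). On that scale GAPDH, which oxidises glyceraldehyde 3-phosphate, was highest at 785. The enolase ENO1 followed at 582, the pyruvate kinase PKM at 353, the triose phosphate isomerase TPI1 at 161 and the phosphoglycerate kinase PGK1 at 102. The glucose transporter SLC2A1 came next at 74.3 and the lactate exporter SLC16A3 at 50.9. At the bottom stood the transporter SLC2A3 at 0.851, the carbonic anhydrase CA9 at 0.566 and ANKRD37, a small ankyrin repeat protein, at 0.469. The range therefore spanned housekeeping levels to transcripts with few counts.

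**Figure D1:**
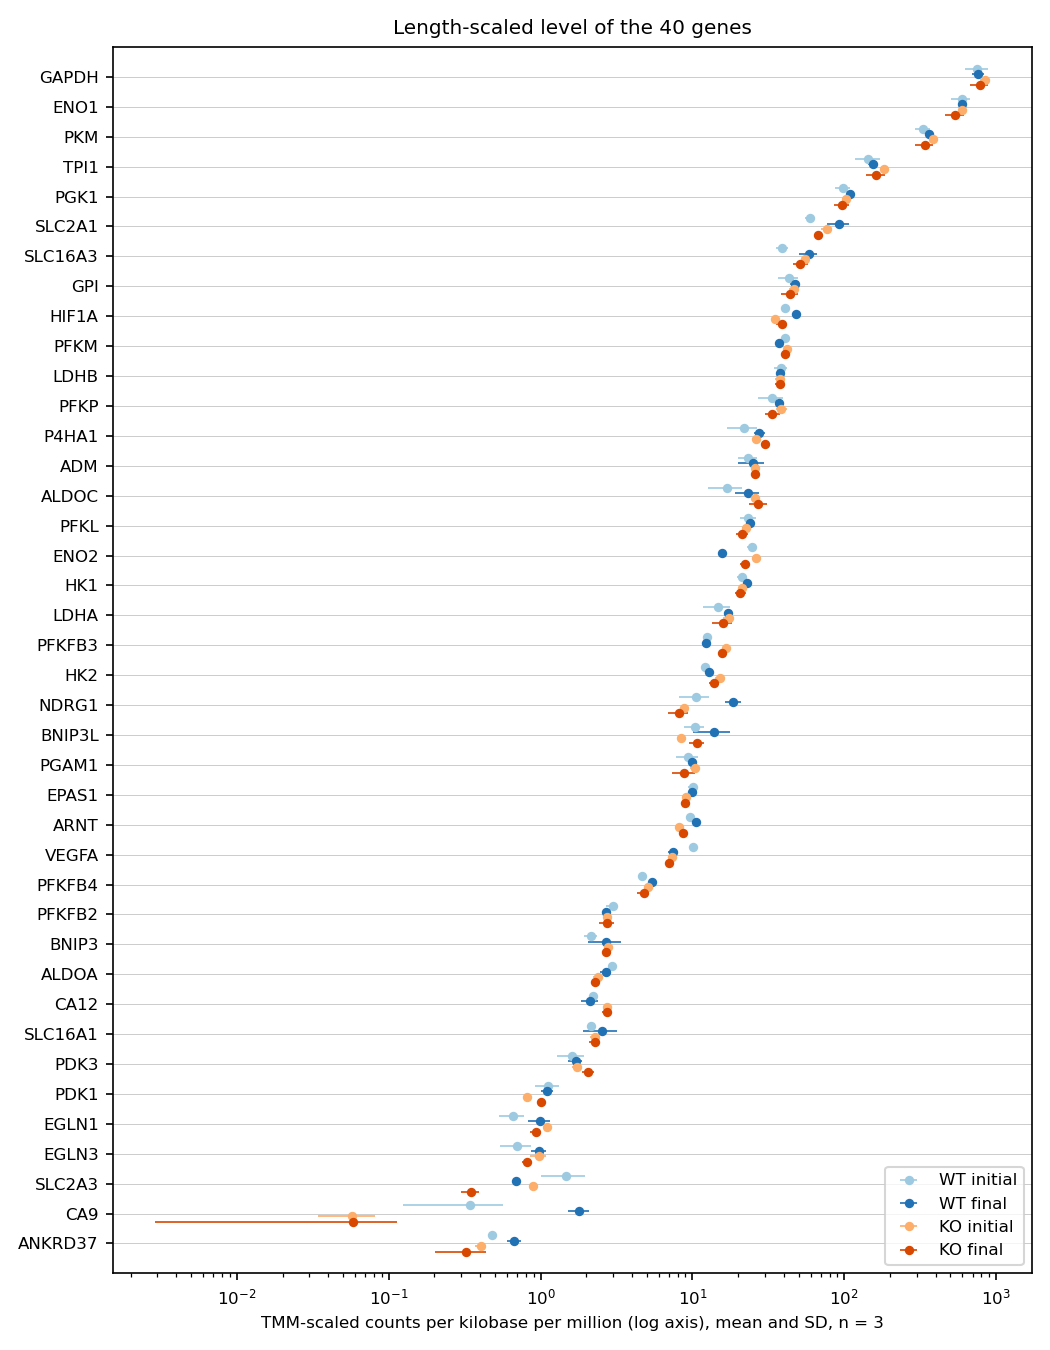
Length-scaled level of the 40 genes (CPM per kilobase, log axis), ordered by their mean over all 12 libraries; points are the means of the 4 groups and bars the SD of 3 libraries. GAPDH, at 785, and ENO1, at 582, stand at the top, and CA9, at 0.566, shows the widest separation of its groups.

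Some of these levels carry a counting limit. ALDOA, the aldolase of most tissues, had a mean level of only 2.57 RPKM, while ALDOC, the brain form, had 23.3 RPKM. The span of ALDOA overlaps another gene on the same strand and one on the other strand, whose counts came to 25.1% of those on ALDOA. LDHA, which converts pyruvate to lactate, has 6 named copies in the table that held counts equal to 13.6% of its own, and the phosphoglycerate mutase PGAM1 has 13, with 5.75%. How reads that fit several genes were counted is not given in the sources used here, so the absolute levels of ALDOA, LDHA and PGAM1 are uncertain.

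Promoter sequence is shown because HIF targets make up part of the list, and the genes printed were chosen after the values were seen. The HIF core is written ACGTG or GCGTG, and both were searched on both strands in the 250 bases before each RefSeq start (GRCh38.p14). ACGTG overlaps the palindrome CACGTG, the E-box letters that other factors also bind. Of the 40 genes, 34 had a window in the table. Among their 61 windows, 37.7% held ACGTG, against 18.5% of all 34788 windows, and 59% held ACGTG or GCGTG, against 43.1% of all. The windows of 4 genes with changes given below are printed 5′ to 3′ on the gene's strand, with every match in capitals.
CA9, chr9:35673678-35673927, plus strand: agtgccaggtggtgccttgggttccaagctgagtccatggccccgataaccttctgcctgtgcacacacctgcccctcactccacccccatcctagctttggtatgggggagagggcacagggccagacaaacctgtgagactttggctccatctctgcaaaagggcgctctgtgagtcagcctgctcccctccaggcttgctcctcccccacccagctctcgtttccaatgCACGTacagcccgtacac
EGLN1, chr1:231422288-231422537, minus strand: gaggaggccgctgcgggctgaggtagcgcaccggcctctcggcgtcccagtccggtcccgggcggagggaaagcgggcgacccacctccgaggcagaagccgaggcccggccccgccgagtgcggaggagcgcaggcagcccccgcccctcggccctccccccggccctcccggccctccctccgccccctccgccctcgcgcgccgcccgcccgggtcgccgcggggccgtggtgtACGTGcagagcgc
ANKRD37, chr4:185396591-185396840, plus strand: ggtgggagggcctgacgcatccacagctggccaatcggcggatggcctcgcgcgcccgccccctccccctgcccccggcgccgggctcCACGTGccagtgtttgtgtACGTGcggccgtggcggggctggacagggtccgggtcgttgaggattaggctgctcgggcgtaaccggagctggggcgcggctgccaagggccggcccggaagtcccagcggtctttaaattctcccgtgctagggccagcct
ALDOC, chr17:28576896-28577145, minus strand: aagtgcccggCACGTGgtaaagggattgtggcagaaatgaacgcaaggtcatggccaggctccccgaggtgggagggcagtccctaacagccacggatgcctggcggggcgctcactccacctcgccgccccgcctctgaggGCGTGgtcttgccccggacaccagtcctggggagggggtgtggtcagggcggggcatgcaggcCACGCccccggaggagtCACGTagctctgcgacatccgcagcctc
The match of CA9 lies 18 bases before the start, on the other strand, and that of EGLN1 lies 13 bases before it. ANKRD37 holds 3 matches of ACGTG, the first pair being the palindrome read on both strands, and ALDOC holds 3 of ACGTG and 2 of GCGTG. The windows of SLC2A1 and EGLN3 held neither set of letters, nor did that of HKDC1, another gene described below. Of the 40 genes, 20 held ACGTG in a window. Among these were genes called in no comparison, such as GAPDH and PGK1, so the letters also occurred in genes that were not called. Whether they were more common in the called genes was not tested. A match is a description of the letters and not evidence that a factor binds there.

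**Figure D2:**
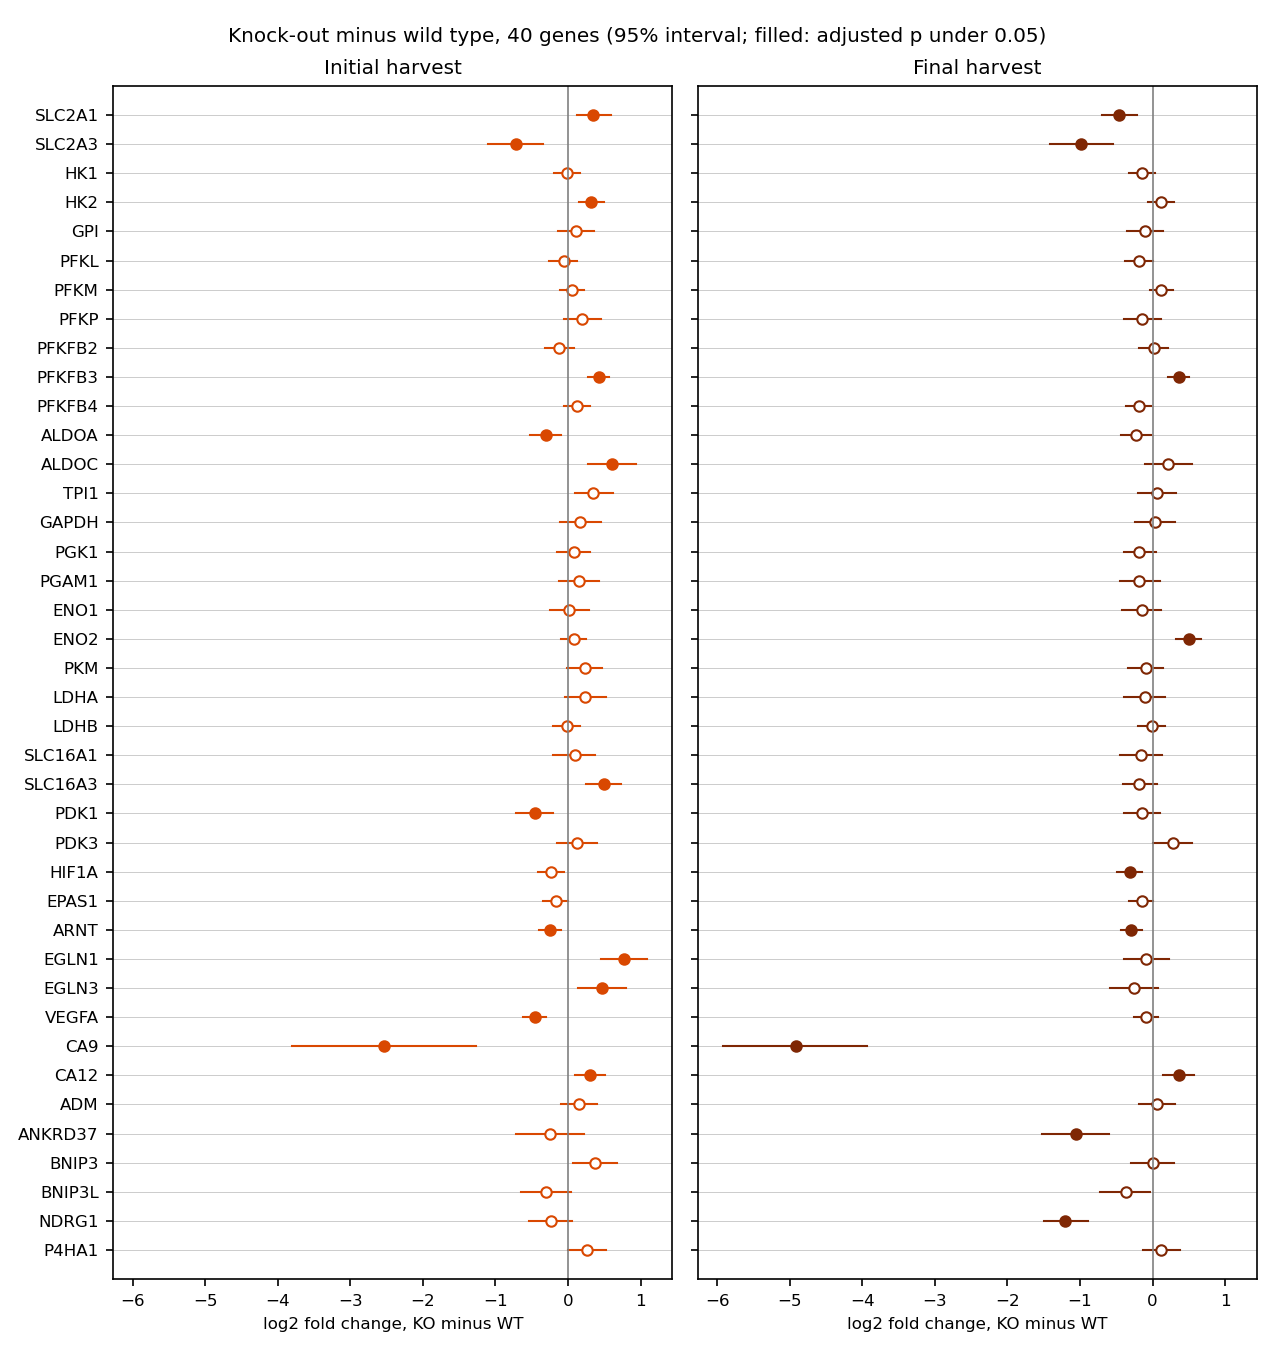
Log2 fold change of knock-out minus wild type for the 40 genes at the initial harvest (left) and the final harvest (right), with 95% intervals on a shared axis; filled points have an adjusted p under 0.05. Most open points lie near 0, and CA9 lies far to the left at both harvests, at -2.54 and -4.92.

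Both glucose transporters differed between the genotypes at both harvests, and SLC2A1 changed direction. SLC2A1 encodes GLUT1, the main basal glucose transporter of proliferating cells (ENSG00000117394.24, chromosome 1, 42925353 to 42958893, minus strand). Its level was 420, 361 and 408 CPM in the wild type at the initial harvest and 732, 551 and 560 CPM at the final harvest. In the knock-out it was 549, 505 and 465 CPM initially and 422, 454 and 467 CPM finally. The knock-out libraries lay above all wild-type libraries at the initial harvest and below all of them at the final one. The log2 fold change of knock-out minus wild type was 0.35 ± 0.11 (SE, n = 3 per group, adjusted p = 0.0353) and then -0.46 ± 0.11 (adjusted p = 0.00821). The initial difference was not called without wild-type replicate 2 or 3 (adjusted p = 0.091 and 0.0838) or knock-out replicate 1 or 2 (0.139 and 0.0928).

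SLC2A3 encodes GLUT3, a high-affinity glucose transporter (ENSG00000059804.16, chromosome 12, 7919230 to 7936187, minus strand), and it was scarce. The wild type had 9.26, 5.93 and 11.7 CPM at the initial and 4.21, 4.07 and 4.22 CPM at the final harvest. The knock-out had 5.80, 5.36 and 5.15 CPM and then 1.79, 2.30 and 2.26 CPM. The groups did not overlap at either harvest, although the lowest initial wild-type library stood close to the knock-out. SLC2A3 was 1.65-fold lower in the initial knock-out (log2 fold change -0.72 ± 0.18, adjusted p = 0.00978) and 1.97-fold lower at the final harvest (-0.98 ± 0.21, adjusted p = 0.00303). Without wild-type replicate 3 the initial difference was not called (adjusted p = 0.0743). The closely related SLC2A14 gene may share its reads, so its level is uncertain.

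The enzymes from hexokinase to lactate dehydrogenase, 17 genes, changed little. Of these, 3 were called at the initial harvest (HK2 and ALDOC higher, ALDOA lower), which is 17.6% against the background of 19.9%, and 1 at the final harvest (ENO2 higher), 5.88% against 18.5%. The median over the 17 was 0.11 initially and -0.10 finally. The most abundant of them, GAPDH, ENO1, PKM, TPI1 and PGK1, were called in none of the 6 comparisons. GAPDH had log2 fold changes of 0.17 (95% interval -0.11 to 0.45) and 0.03 (-0.24 to 0.31), and ENO1 had 0.02 (-0.25 to 0.29) and -0.15 (-0.42 to 0.11). TPI1 was nearest to the threshold, at 0.35 ± 0.13 with an adjusted p of 0.0602 at the initial harvest, and it passed at that harvest in DESeq2 (0.0383), with no filter on low counts (0.00598), and without wild-type initial replicate 2 (0.00465) or knock-out final replicate 2 (0.0444).

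These 17 genes ordered the libraries of a group alike. Replicate 1 of the initial wild type was the lowest of its group in 16 of the 17, against 38.4% of all genes. Its replicate 2 was highest in 13 (36.6% over all genes). Replicate 1 of the initial knock-out was lowest in 13 (38.1% over all genes), and its replicate 2 was highest in 14 (29.8%). In the final knock-out, replicate 2 was lowest in 14 (35.6% over all genes) and replicate 3 highest in 15 (32.9%). In the final wild type, replicate 3 was highest in 13 (30.9%). The median of the 17 at the initial harvest was 0.05 without replicate 1 of the wild type and 0.19 without its replicate 2. At the final harvest it was -0.01 without replicate 2 of the knock-out and -0.21 without its replicate 3. Leaving out 1 library thus either brought the median toward 0 or raised its size, and the cause was not tested.

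Within the upper pathway, HK2, the inducible hexokinase, ranged from 69.8 to 95.9 CPM and was 1.25-fold higher in the initial knock-out (log2 fold change 0.32 ± 0.08, adjusted p = 0.011). It was not called without wild-type replicate 3 (adjusted p = 0.0567) or knock-out replicate 2 (0.0741). HK1, the housekeeping hexokinase, had -0.01 and -0.14, and the isomerase GPI had 0.11 and -0.10, none of them called. The phosphofructokinase genes PFKL, PFKM and PFKP, which encode the committed step, lay between -0.19 and 0.20 at both harvests, and with all 12 libraries none passed edgeR's test or DESeq2's or had an unadjusted p under 0.05. Without wild-type initial replicate 2, PFKP was called at the initial harvest, at 0.33 (adjusted p = 0.0408).

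PFKFB3 makes fructose 2,6-bisphosphate, the activator of phosphofructokinase, and was higher in the knock-out at both harvests. Its mean was 76 ± 2.51 CPM (SD, n = 3) in the initial and 75 ± 1.4 in the final wild type, and 102 ± 1.64 and 96 ± 2.74 CPM in the knock-out. The genotypes did not overlap at either harvest, and the level hardly moved with time. The log2 fold change was 0.43 ± 0.07 (adjusted p = 0.000237) and 0.36 ± 0.07 (adjusted p = 0.00118), that is 1.34-fold and 1.28-fold higher. PFKFB2 and PFKFB4, which encode other forms of the enzyme, were not called, at -0.12 and 0.02 for PFKFB2 and 0.12 and -0.19 for PFKFB4. PFKFB4 was called at the final harvest without knock-out replicate 3, at -0.28 (adjusted p = 0.0414). YOD1 overlaps PFKFB2 on the other strand and held counts equal to 140% of its own, so the level of PFKFB2 is uncertain.

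Among the enzymes of lower glycolysis, the aldolase and enolase forms of neural tissue differed. ALDOC (ENSG00000109107.14, chromosome 17, 28573115 to 28576948, minus strand) had 35.1, 40.4 and 56.8 CPM in the initial and 50.3, 59.7 and 72.3 CPM in the final wild type. In the knock-out it had 63.7, 71.5 and 66.7 CPM and then 68.2, 62.7 and 81.8 CPM. The knock-out libraries were all higher at the initial harvest (log2 fold change 0.61 ± 0.16, adjusted p = 0.0114), while the ranges overlapped at the final one (0.22 ± 0.16, adjusted p = 0.374). The initial call was lost without knock-out replicate 2 (adjusted p = 0.0527).

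ENO2, neuron-specific enolase (ENSG00000111674.9, chromosome 12, 6913745 to 6923698, plus strand), had 105, 98.2 and 114 CPM in the initial and 69.4, 63.5 and 68.6 CPM in the final wild type. The knock-out had 113, 115 and 109 CPM and then 88.5, 95.4 and 101 CPM. The genotypes overlapped at the initial harvest (log2 fold change 0.08 ± 0.08) and separated at the final one, where the knock-out was 1.41-fold higher (0.50 ± 0.08, adjusted p = 0.000284). Both groups stood lower at the final harvest, and the fall in the wild type passed the test while that in the knock-out did not. ALDOA was 1.24-fold lower in the initial knock-out (log2 fold change -0.31 ± 0.10, adjusted p = 0.0345). That call was lost without wild-type initial replicate 3 (0.131), wild-type final replicate 2 or 3 (0.0539 and 0.0515), knock-out initial replicate 2 or 3 (0.112 and 0.135) or knock-out final replicate 1 (0.0504). It was also lost with only the groups compared (0.0645) and with no filter (0.109). The overlapping genes described above make the difference in ALDOA uncertain, as well as its level.

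Of the genes of lactate and pyruvate handling, SLC16A3 encodes MCT4, the lactate exporter (ENSG00000141526.18, chromosome 17, 82217934 to 82261129, plus strand). It had 321, 386 and 376 CPM in the initial wild type and 619, 507 and 487 CPM in the final wild type. The knock-out had 527, 514 and 476 CPM and then 414, 514 and 498 CPM. All knock-out libraries were above the wild type at the initial harvest, 1.4-fold on the fitted scale (log2 fold change 0.49 ± 0.11, adjusted p = 0.00531), and the ranges overlapped at the final harvest (-0.18 ± 0.11, adjusted p = 0.317). Its span overlaps genes that held counts equal to 43.6% of its own, among them CSNK1D on the other strand, so its level is uncertain.

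LDHA had log2 fold changes of 0.24 and -0.11 and LDHB, the form that favours pyruvate, -0.01 and -0.01. LDHA passed the test at the initial harvest without wild-type replicate 2 (adjusted p = 0.0464). SLC16A1, which encodes the carrier MCT1, had 0.09 and -0.16. None of these was called with all 12 libraries. PDK1, a kinase that shuts off pyruvate dehydrogenase, was 1.38-fold lower in the initial knock-out (-0.46 ± 0.12, adjusted p = 0.0109) and not called at the final harvest (-0.15 ± 0.12, adjusted p = 0.431). The initial call was lost without wild-type replicate 3 (0.0602). PDK3, a related kinase, had 0.13 and 0.28, which were not called.

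HIF1A and ARNT were slightly lower in the knock-out. HIF1A, which encodes HIF-1alpha (ENSG00000100644.17, chromosome 14, 61695513 to 61748259, plus strand), had 205, 216 and 213 CPM in the initial and 242, 247 and 256 CPM in the final wild type. It had 167, 186 and 185 CPM and then 217, 182 and 200 CPM in the knock-out. Every knock-out library was below every wild-type library of its harvest. The log2 fold change was -0.24 ± 0.08 (adjusted p = 0.0513) initially and -0.31 ± 0.08 (adjusted p = 0.0118) finally, and the final call was lost without wild-type replicate 3 (0.0529) or knock-out replicate 2 (0.0638). The initial difference passed in DESeq2 (0.0247), with a stricter filter (0.0459), and without wild-type final replicate 1 (0.0404) or knock-out final replicate 2 (0.0452).

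ARNT, the partner subunit, fell in the knock-out by 0.25 ± 0.07 (adjusted p = 0.0203) initially and by 0.29 ± 0.07 (adjusted p = 0.00872) finally on the log2 scale. Its initial call was lost with no filter on low counts (0.107) and without wild-type replicate 3 (0.0602) or knock-out replicate 1 or 3 (0.102 and 0.0596). EPAS1, which encodes HIF-2alpha, had -0.17 and -0.15, not called at either harvest. Over both harvests together, where 30.1% of all genes were called (14% higher, 16.1% lower), EPAS1 (-0.16 ± 0.06, adjusted p = 0.0396) and BNIP3L (-0.34 ± 0.12, adjusted p = 0.0351) were lower and were among 17 of 40 genes called, 6 higher and 11 lower. The calls of EPAS1 and BNIP3L in that comparison were each lost when single libraries were left out, 8 of 12 for EPAS1 (adjusted p from 0.0535 to 0.111) and 7 of 12 for BNIP3L (from 0.0555 to 0.0971), and that of EPAS1 also with no filter on low counts (0.107).

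EGLN1 encodes PHD2, the main oxygen-sensing prolyl hydroxylase (ENSG00000135766.9, chromosome 1, 231363751 to 231422287, minus strand). The wild type had 2.76, 4 and 3.80 CPM at the initial and 4.37, 6.05 and 5.54 CPM at the final harvest. The knock-out had 6.08, 6.17 and 5.74 CPM and then 4.58, 5.00 and 5.43 CPM. All knock-out libraries were higher at the initial harvest (1.7-fold, log2 fold change 0.77 ± 0.15, adjusted p = 0.00174), and the ranges overlapped at the final one (-0.09 ± 0.15, adjusted p = 0.744). EGLN3, which encodes PHD3, ranged from 3.81 to 8.2 CPM and gave 0.47 ± 0.16 (adjusted p = 0.0431) and then -0.26 ± 0.16 (adjusted p = 0.295). Its initial call was lost in 7 of the 12 refits that left out 1 library, with adjusted p from 0.0518 to 0.2, and with only the groups compared (0.0757). Genes within its span held counts equal to 324% of its own, so the difference in EGLN3 is uncertain.

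The other HIF targets split. CA9, carbonic anhydrase IX, a cell-surface enzyme used as a marker of hypoxia in tumours (ENSG00000107159.13, chromosome 9, 35673918 to 35681159, plus strand), had the largest fold change of the 40 genes at both harvests. It had 18, 11 and 38 counts in the initial wild type (0.44, 0.272 and 0.951 CPM) and 93, 107 and 131 counts in the final wild type (2.52, 2.79 and 3.39 CPM). The knock-out held 4, 5 and 2 counts and then 0, 7 and 4 counts. The wild type was above the knock-out in every library of both harvests. The log2 fold change was -2.54 (95% interval -3.80 to -1.27, adjusted p = 0.00623) initially and -4.92 (-5.92 to -3.93, adjusted p = 1.1e-06) finally. ARHGEF39 overlaps CA9 on the other strand and held counts equal to 3800% of its own, and whether counting used the strand is not stated, so the level of CA9 is uncertain.

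ANKRD37 (ENSG00000186352.9, chromosome 4, 185396021 to 185400628, plus strand) had 1.12, 1.01 and 1.10 CPM in the initial and 1.33, 1.64 and 1.58 CPM in the final wild type. It had 0.984, 0.902 and 0.842 CPM and then 1.03, 0.587 and 0.553 CPM in the knock-out. The groups did not overlap at either harvest, and the gene was called only at the final one, 2.09-fold lower (log2 fold change -1.06 ± 0.22, adjusted p = 0.00252). It shares its span with UFSP2 on the other strand, which held counts equal to 1483% of its own, so its level is uncertain too.

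NDRG1, a stress and differentiation protein induced by hypoxia (ENSG00000104419.17, chromosome 8, 133237175 to 133302022, minus strand), had 108, 111 and 158 CPM in the initial and 196, 224 and 250 CPM in the final wild type. The knock-out had 100, 114 and 105 CPM and then 95.6, 83.3 and 113 CPM. The ranges overlapped at the initial harvest (log2 fold change -0.24 ± 0.14, adjusted p = 0.259), and at the final harvest all knock-out libraries were lower, 2.29-fold on the fitted scale (-1.20 ± 0.14, adjusted p = 1.47e-05).

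VEGFA, the angiogenic growth factor, stood at 146 ± 4.03 CPM (SD, n = 3) in the initial wild type and between 101 and 108 CPM on average in the other 3 groups. The difference was called at the initial harvest (log2 fold change -0.46 ± 0.08, adjusted p = 0.000355) and not at the final one (-0.09 ± 0.08, adjusted p = 0.455). CA12, a second membrane carbonic anhydrase, went the other way from CA9, with 0.30 ± 0.10 (adjusted p = 0.0365) and 0.36 ± 0.10 (adjusted p = 0.0158). The initial call of CA12 was lost when any of the 6 initial libraries was left out (adjusted p from 0.0549 to 0.127) and with no filter (0.0783), and the final call without wild-type replicate 2 or 3 (0.0764 and 0.105) or knock-out replicate 2 (0.0764). ADM, the vasodilator peptide adrenomedullin, BNIP3 and BNIP3L, which act in removal of mitochondria, and P4HA1, a collagen prolyl hydroxylase, were not called at either harvest. BNIP3 had 0.37 ± 0.14 at the initial harvest (adjusted p = 0.0778) and was called there with only the groups compared (0.0268), with no filter (0.0269), and without wild-type final replicate 1 or 3 (0.0123 and 0.0497). BNIP3L had -0.31 ± 0.16 and -0.37 ± 0.16 (adjusted p = 0.215 and 0.129), and was called with no filter at both harvests (0.0355 and 0.00417) and at the final harvest without wild-type replicate 1, at -0.58 (0.00357). P4HA1 had 0.26 ± 0.12 initially (adjusted p = 0.154) and was called there without wild-type replicate 3, at 0.41 (0.0308).

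**Figure D3:**
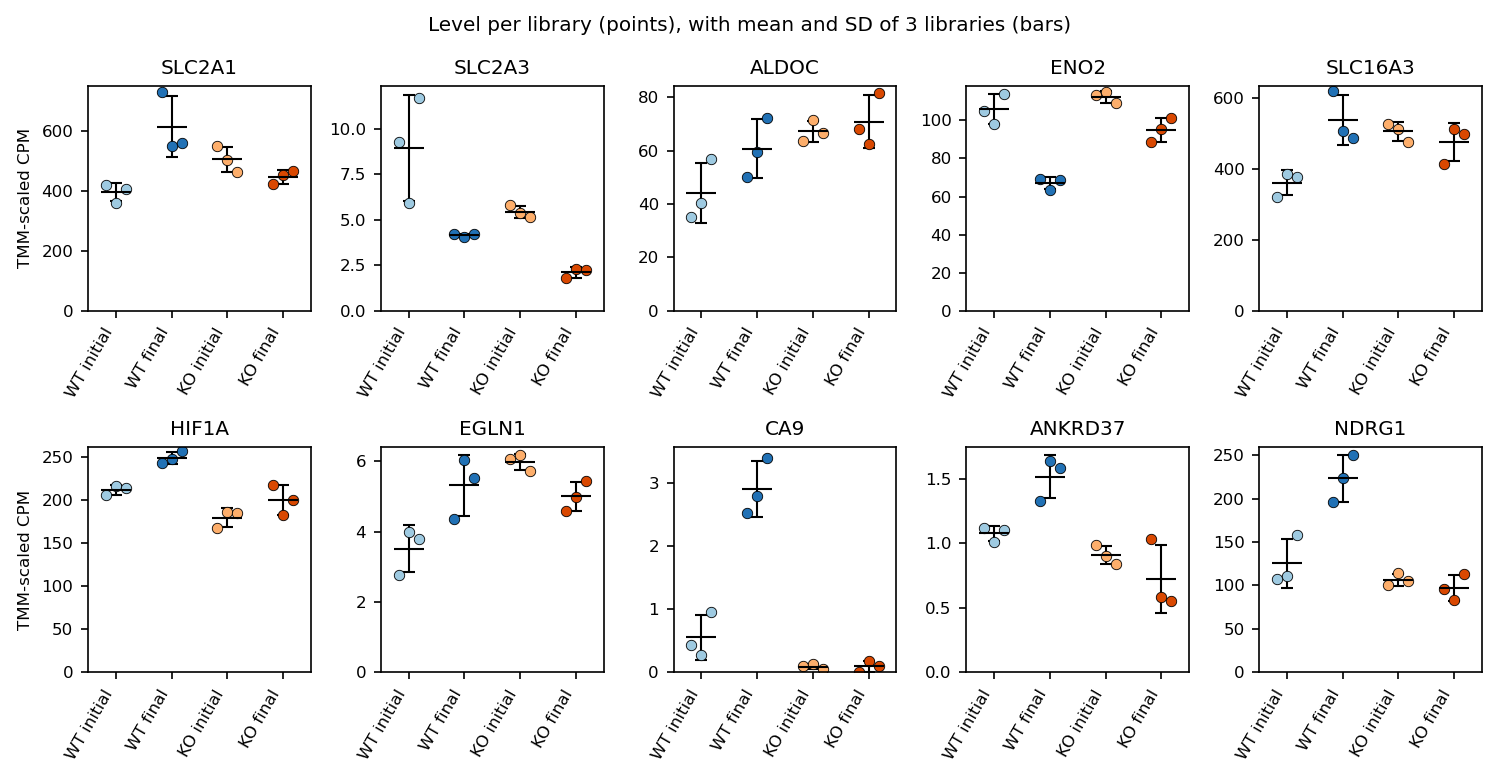
TMM-scaled CPM of the 10 members given per library; each point is a library, the long bar the mean and the short bars the SD of 3, and each panel's axis starts at 0. SLC2A1 and NDRG1 rose over culture in the wild type and had log2 fold changes of -0.18 and -0.12 in the knock-out, and CA9 stood near 0 in both knock-out groups.

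Over 2 months of culture, the wild type changed in 8 of the 40 genes, 20% against 6.47% of all genes (3.05% higher, 3.42% lower), and the knock-out in 1, 2.5% against 1.48% (0.837% higher, 0.64% lower). In the wild type 5 rose, CA9 (log2 fold change 2.39 ± 0.34, adjusted p = 0.000441), NDRG1 (0.83 ± 0.14, adjusted p = 0.0019), SLC2A1 (0.63 ± 0.11, adjusted p = 0.0025), EGLN1 (0.60 ± 0.15, adjusted p = 0.0277) and SLC16A3 (0.58 ± 0.11, adjusted p = 0.00507). The other 3 fell, SLC2A3 by 1.10 ± 0.19 (adjusted p = 0.00165), ENO2 by 0.66 ± 0.08 (adjusted p = 0.000112) and VEGFA by 0.43 ± 0.08 (adjusted p = 0.00215). The call of EGLN1 was lost with only the groups compared (0.112) and without initial replicate 1 or 3 (0.0958 and 0.058) or final replicate 2 or 3 (0.142 and 0.102). In the knock-out SLC2A3 fell, 2.57-fold on the fitted scale (-1.36 ± 0.20, adjusted p = 0.00202). SLC2A3 was thus the member called in both genotypes over time. Without a filter on low counts the wild-type changes of ALDOC (adjusted p = 0.000593), BNIP3L (0.004), EGLN3 (0.0319) and P4HA1 (0.0279) were called as well.

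The medians over the 40 genes were 0.12 for wild type and -0.08 for knock-out, against 0.01 and 0.00 over all genes tested. The 17 enzymes ordered the libraries of a group alike, so their signs are not separate observations. Among them, 16 had a log2 fold change below 0 in the knock-out (94.1%, against 49.1% of all genes tested), with a median of -0.12. None was called there by edgeR or by DESeq2, and 1, ENO2, had an unadjusted p under 0.05 in edgeR; in the wild type ENO2 was called. The knock-out median was -0.07 without final replicate 2, and the wild-type median, 0.09 with all libraries, was -0.01 without initial replicate 1. The time comparisons share libraries with the genotype comparisons, so a high or low initial wild type enters both.

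**Figure D4:**
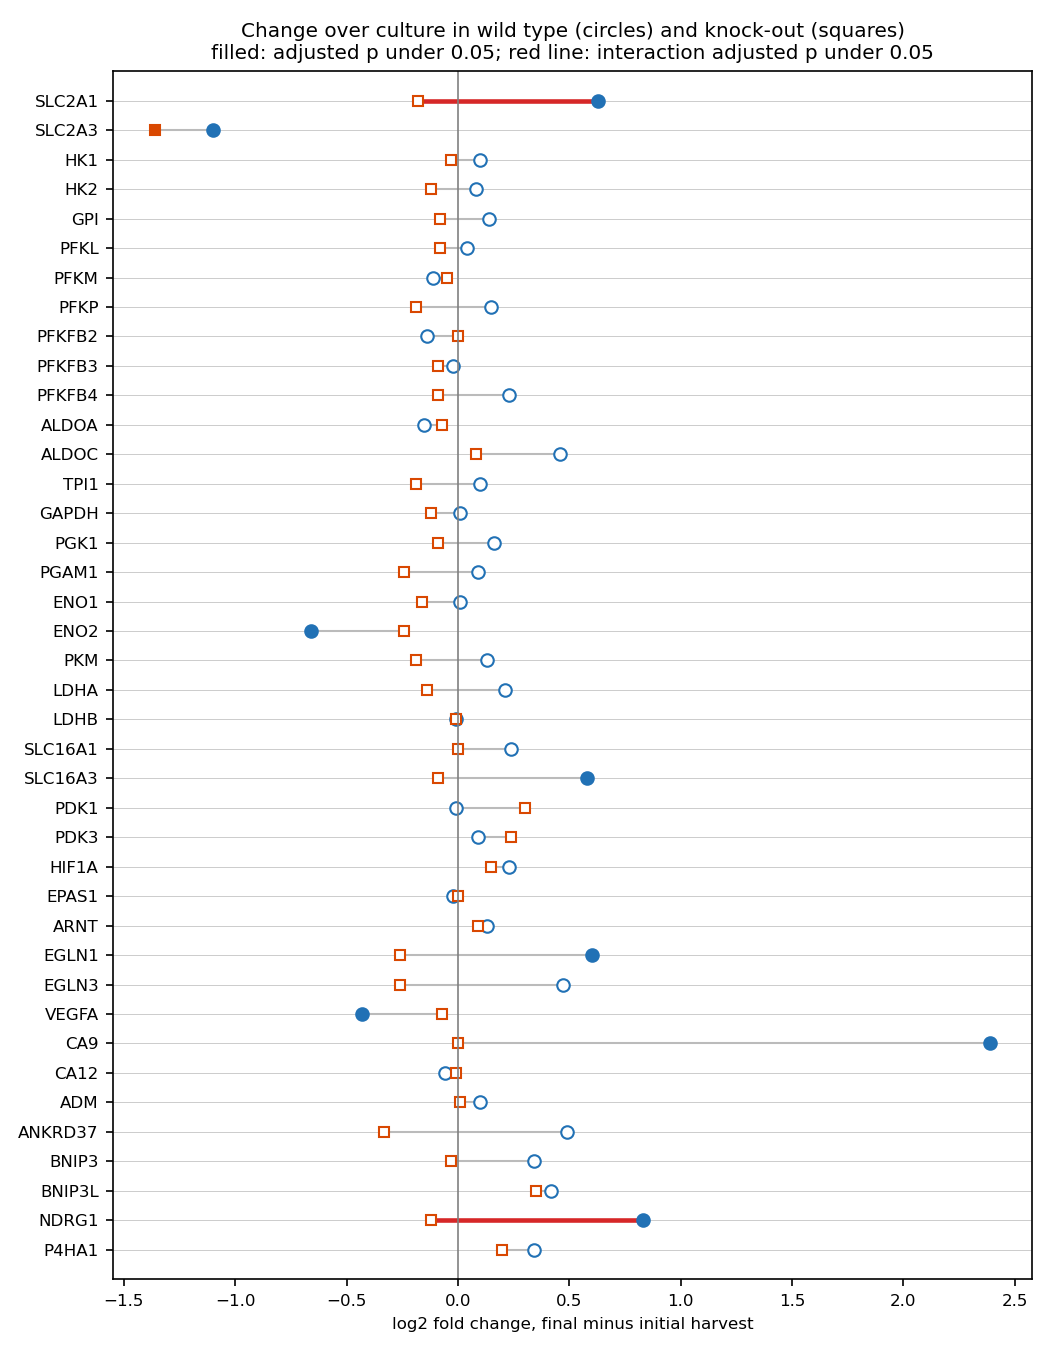
Log2 fold change of final minus initial harvest for the 40 genes in wild type (circles) and knock-out (squares), joined by a line; filled symbols have an adjusted p under 0.05, and a red line marks an interaction with an adjusted p under 0.05. Red lines mark SLC2A1 and NDRG1, and SLC2A3 is the gene with both symbols filled.

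Whether the genotype difference changed between harvests was tested directly as the interaction of genotype and time, in which 1.28% of all genes were called (0.809% higher, 0.476% lower). SLC2A1 (-0.81 ± 0.16, adjusted p = 0.0157) and NDRG1 (-0.95 ± 0.20, adjusted p = 0.0243) passed, both lower, which is 2 of 40 or 5%. For SLC2A1 the call was lost without knock-out initial replicate 1 (adjusted p = 0.0533) or knock-out final replicate 1 (0.0568). For NDRG1 it was lost without wild-type final replicate 2 or 3 (0.0599 and 0.0673), knock-out initial replicate 2 or 3 (0.0856 and 0.0625), or knock-out final replicate 1 or 2 (0.0647 and 0.0601). SLC16A3 (-0.67 ± 0.16, adjusted p = 0.0523), EGLN1 (-0.86 ± 0.21, adjusted p = 0.0673) and ENO2 (0.42 ± 0.11, adjusted p = 0.0975) stood near the threshold, and DESeq2 called all of these and VEGFA. Without wild-type initial replicate 2 the adjusted p was 0.0277 for SLC16A3, 0.0263 for EGLN1 and 0.0329 for ENO2. CA9 had the largest interaction estimate in size, -2.39, with a 95% interval of -4.48 to -0.29 and an adjusted p of 0.324. Its counts were few in both knock-out groups and in the initial wild type, and the cause of the wide interval was not tested. EGLN3 (-0.73 ± 0.22, adjusted p = 0.148) was called with no filter on low counts (0.0245), as were EGLN1 (0.00703) and SLC16A3 (0.000421). Without wild-type final replicate 1, EGLN1 (0.0257) and VEGFA (0.0375) were called.

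Other genes of the same pathways were read from a list of 62, of which 56 were tested. This list too was chosen with earlier results of these data known. The knock-out differed in 14 of these at the initial harvest, 8 higher and 6 lower, and in 15 at the final harvest, 5 higher and 10 lower, which is 25% and 26.8% against the backgrounds of 19.9% and 18.5%.

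DDIT4, an inhibitor of mTOR signalling induced by stress, fell by 1.46 ± 0.12 and 1.0 ± 0.12 (adjusted p = 2.93e-07 and 1.65e-05). Its mean was 186 ± 34.5 CPM in the initial and 113 ± 7.43 in the final wild type, and 67.5 ± 4.09 and 56.7 ± 6.36 CPM in the knock-out (SD, n = 3). BHLHE40, a transcriptional repressor, fell by 1.02 ± 0.12 and 1.28 ± 0.12 (adjusted p = 9.52e-06 and 7.59e-07). In the other direction AK4, a mitochondrial adenylate kinase, was 1.8-fold and 1.83-fold higher (log2 fold change 0.85 and 0.87, adjusted p = 3.29e-06 and 1.88e-06). TIGAR, a phosphatase that lowers fructose 2,6-bisphosphate and is a p53 target, gave 0.76 and 0.51 (adjusted p = 0.00177 and 0.0253). Its final call was lost without wild-type replicate 1 or 2 (0.0844 and 0.0697) or knock-out replicate 1 (0.139). Hypoxia targets among both lists were therefore found higher and lower in the knock-out.

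HKDC1, a hexokinase-like enzyme, was 1.35-fold and 2.25-fold higher in the knock-out (log2 fold change 0.44 ± 0.08 and 1.17 ± 0.08, adjusted p = 0.00091 and 3.22e-08), and its interaction was called (0.73 ± 0.11, adjusted p = 0.00287). The wild type had 14.4, 14.8 and 14.5 CPM initially and 9.04, 9.17 and 8.8 CPM finally. The knock-out stood at 19.4, 20.3 and 19.4 CPM and then at 19.1, 21.2 and 20.5 CPM. The wild type fell and the knock-out stayed within 19.1 to 21.2 CPM. Over culture the wild type changed in 6 of the 56 genes, 2 higher and 4 lower (10.7% against 6.47%). KDM4B, a histone demethylase, and SLC2A12, a glucose transporter, were highest (0.62 and 0.61), and DDIT4 and HKDC1 were lowest (-0.72 and -0.69). Genes on the other strand, TBPL1 among them, overlap SLC2A12 and held counts equal to 140% of its own, so its level is uncertain. The knock-out changed in 1 of 56, KDM4C, another histone demethylase, at 0.38 (adjusted p = 0.0224), and that call was lost when any of the 6 knock-out libraries was left out (adjusted p from 0.0724 to 0.151).

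**Figure D5:**
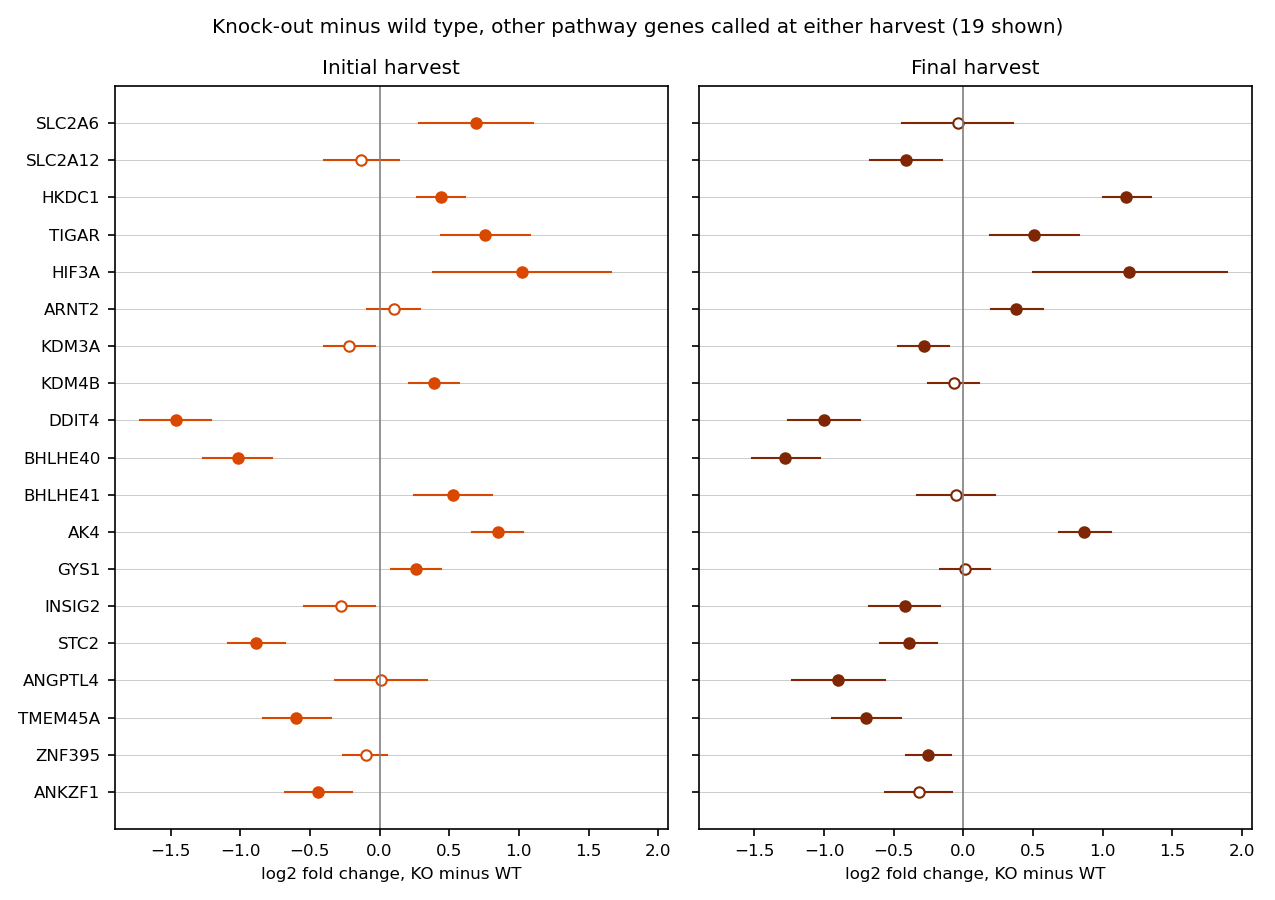
Log2 fold change of knock-out minus wild type with 95% intervals for 19 other pathway genes called at either harvest, on a shared axis for the initial (left) and final (right) harvest; filled points have an adjusted p under 0.05. DDIT4 and BHLHE40 are lower at both harvests and AK4 is raised at both.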

How the data were processed

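The authors deposited 1 table of raw counts per gene, 1 column per library. STAR, featureCounts and Subread are named, with build hg38 and no versions, per the submitters' processing notes; strandedness and handling of multi-mapping reads are not given in the sources used here. Symbols were matched for 60506 of 60648 genes, and 5 broken lines, holding 1 gene, were left out. Genes passing filterByExpr by group, 18289, were scaled by TMM and fitted in edgeR 4.0.16 (R 4.3.3, limma 3.58.1) with 1 robust quasi-likelihood model of all 12 libraries (biological coefficient of variation 9.77%). CPM are TMM-scaled. P-values were adjusted over all genes tested, and called under 0.05. The script was tested on simulated data. Intervals are at 95% and cover the spread between libraries. Members and lists were chosen with earlier results of these data known. A member was given per library when called with an absolute log2 fold change of at least 0.5 in any comparison, or when it was HIF1A. Of the other pathway genes, the 2 raised and the 2 lowered most per genotype and time comparison were named if their mean log2 CPM reached 1. HKDC1's interaction was also given. The lists' counts include 1 gene that is not reported here. Alternatives were RLE size factors, DESeq2 1.42.0, no filter, a stricter filter, only the groups compared, the replicate block and each library left out. Over all genes tested, deviations from the group mean correlated at -0.358 to 0.238 between same-numbered libraries (18 pairs). Between differently numbered libraries they correlated at -0.427 to 0.388. In both initial groups, replicate 1 was lowest in most of the 17 enzymes, and replicate 2 was highest in most. Promoter windows come from RefSeq.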

Additional observations from a re-analysis of the deposited data

Results flagged for a closer look

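For 3 genes the genotype difference itself changed between the harvests by the interaction test of edgeR. SLC2A1 had an interaction of -0.81, being higher in the knock-out at the initial and lower at the final harvest. NDRG1 had -0.95, with a difference between the genotypes called at the final harvest. HKDC1 had 0.73, with a larger excess in the knock-out at the final harvest. The interaction calls of SLC2A1 and NDRG1 were each lost in some of the refits that left out 1 library, as given above. The cause of the change was not tested in any of the 3 genes.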

How the results depend on the processing

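For the 52 called values of members, 285 of 293 refits under other settings kept the call and direction, 8 lost the call, and none turned. Leaving out 1 library kept 557 of 624 and lost 67, over 17 values. Genes called over culture in the wild type numbered 1183, and 578 with only the groups compared. In the knock-out they numbered 270, and 602 in DESeq2, 484 with no filter and 728 with only the groups compared, where 2 members were called in place of 1. Genes called in the interaction numbered 235, and 472 in DESeq2 and 423 with no filter; members called there numbered 2, and 6 in DESeq2 and 5 with no filter.

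With 1 library left out, called genes ranged from 2423 to 4615 at the initial harvest (members 7 to 16), from 2561 to 3895 at the final (8 to 11), from 627 to 1399 over time in the wild type (7 to 11), from 94 to 463 in the knock-out (1 to 1), from 4657 to 6039 in the average (14 to 18) and from 124 to 444 in the interaction (0 to 5). Members fell to 7 without wild-type initial replicate 3 and to 8 without knock-out initial replicate 2; edgeR called none in the interaction without knock-out final replicate 1, where 9 had an unadjusted p under 0.05 (DESeq2 on all libraries called 6). The causes were not tested.

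With the replicate number as a block, 3539, 3298, 1123, 246, 5421 and 217 genes were called in the same order, and 15, 10, 9, 1, 17 and 3 members; 5 of 12 libraries correlated best with their own number. The block ended the initial call of ALDOA (adjusted p = 0.0503) and added TPI1 (0.0489) and BNIP3 (0.0431) initially, ALDOC over time in the wild type (0.0212) and EGLN1 in the interaction (0.0359). Low counts limit CA9, ANKRD37, SLC2A3 and EGLN1.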
